A study of Mus musculus with 15 samples.

Results

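The livers of mice fed a high-fat diet (HF group) were compared with the livers of mice fed a normal diet (ND group), gene by gene. The comparison takes the 3 HF arrays and the 3 ND arrays, 6 of the 15 arrays in the series, chosen by their diet labels alone. All mice were C57BL/6J males, 7 weeks old at the start and fed for 9 weeks, and none of these 6 received coffee. The ND group ate D12450B, a diet with 10% of energy from fat, and the HF group ate D12492, with 60% from fat. The other 9 arrays come from 3 groups fed the high-fat diet with 2% coffee (caffeinated, HFCC; decaffeinated, HFDC; green unroasted, HFGC) and enter here through the shared estimate of the spread. The 3 mice of a group had been taken at random from a larger group, and each array holds the liver RNA of 1 mouse. P-values therefore set the difference between the groups against the spread between mice within groups, estimated from all 15 arrays.

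A high-fat diet loads the liver with fatty acids. Hepatocytes burn, esterify or export them, and they also carry the enzymes that clear foreign and endogenous lipophilic compounds, secrete hormones of their own, and keep their proteins folded with heat shock chaperones. Stellate cells, which store vitamin A in the healthy organ, lay down matrix when they are activated, and Kupffer cells are the resident macrophages. The whole liver was measured, so that a different number of cells of a type and a different amount of RNA per cell cannot be told apart.

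Each value is a log2 intensity on an Affymetrix array, in which 1 unit is a 2-fold difference, and a log2 fold change is the HF mean minus the ND mean. A gene was called when the adjusted p of limma, corrected over all 18193 genes, was under 0.05. In the HF group 1622 genes were called higher, or 8.92% of those tested, and 843 lower, or 4.63%, so that 13.5% were called in either direction. Thus 65.8% of the calls were higher, and after a further cyclic loess normalisation between arrays 51.5% were (1177 higher and 1108 lower). The call rested on small differences for most genes. Only 374 called genes differed by 1.5-fold or more, and 58 rose and 19 fell by 2-fold or more. Every HF array lay above every ND array for 15.7% of the genes tested, and below every ND array for 10.8%. The 3′ signal of the control transcripts Gapdh and Actb exceeded their 5′ signal by 0.83 to 0.95 log2 units on the ND arrays and by 1.08 to 1.40 on the HF arrays, and HF replicate 2 had the highest value. This measure of RNA quality did not overlap between the groups (two-sided p = 0.1 by an exact permutation test, below which 3 arrays against 3 cannot go). With it as a covariate 11 genes stayed higher and 3 lower, while 2456 of the 2465 called genes had the same direction, with a median size of 0.31 against 0.38 on the log2 scale. It runs beside every result here. Without HF replicate 2 the calls numbered 693 higher and 296 lower, and without HF replicate 3 they numbered 811 and 350.

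**Figure D1:**
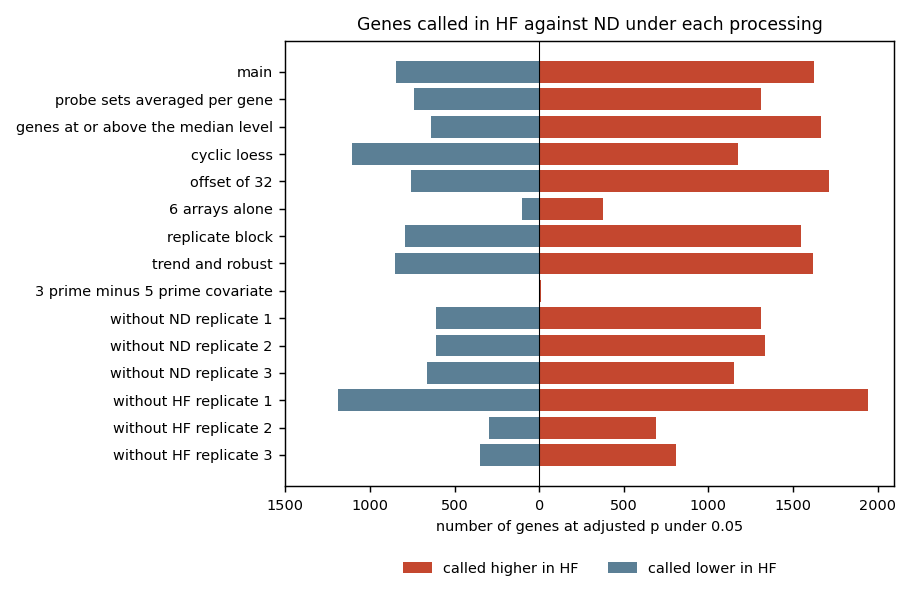
Number of genes called higher (right) and lower (left) in HF than in ND livers at an adjusted p under 0.05 under each processing, where main is the analysis described in the text. Of the settings plotted, the bars shorten most with the 3′ minus 5′ signal as a covariate (11 higher, 3 lower), with the 6 arrays alone (377 and 104) and without HF replicate 2 (693 and 296).

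Among the 15 genes that rose most, 8 belong to cholesterol synthesis and its control (Msmo1, Sqle, Idi1, Fdps, Cyp51, Hmgcs1, Insig1 and Mvd), with log2 fold changes of 1.98 to 3.05. Fdps gave 1.22 as the mean of 2 probe sets. The other 7 were Cyp2b9, Lgals1, Tpm2, Ces1g, Mfsd2a, Ccdc25 and Slc25a30. Ces1g, a carboxylesterase of the liver, read 7.71, 8.37 and 7.84 on the ND arrays and 9.90, 10.30 and 10.14 on the HF arrays. The groups were far apart, with a log2 fold change of 2.14 ± 0.16 (SE, n = 3 per group; limma adjusted p = 2.2e-05). Mfsd2a, a transporter of lysophospholipids that carry long polyunsaturated fatty acids, read 7.72, 8.07 and 7.65 in ND and 10.18, 9.49 and 9.84 in HF livers. It rose by 2.02 ± 0.38 (SE; limma adjusted p = 0.0049). Slc25a30, a mitochondrial carrier, rose by 1.90 ± 0.50 (adjusted p = 0.023) but kept its call in only 2 of the 6 fits that each left out 1 array, and averaged 1.06 over its 5 probe sets.

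The 15 genes that fell most were more mixed. Rgs16, a regulator of G protein signalling, read 11.11, 10.01 and 9.64 in ND livers and 8.07, 8.46 and 8.35 in HF livers. Its log2 fold change was −1.96 ± 0.58 (SE; limma adjusted p = 0.037), and the call held in 1 of the 6 fits that left out an array. Lepr, the leptin receptor, read 8.46, 7.59 and 7.14 in ND and 6.27, 6.61 and 6.20 in HF livers, a log2 fold change of −1.37 ± 0.23 (adjusted p = 0.0033). The other 3 Lepr probe sets gave −4.33, −3.70 and −0.20, and the mean of all 4 was −2.40. Cd9, a tetraspanin of the cell surface, fell by 1.41 ± 0.16 (adjusted p = 0.00032), and no HF array reached an ND array. Got1, the cytosolic aspartate aminotransferase, Rrm2, a subunit of ribonucleotide reductase, and Lpin1, a phosphatidate phosphatase and coregulator, fell by 1.20, 1.19 and 1.08. Those 3 kept their calls in 2 or 3 of the 6 fits with an array left out. Gsdme, Tent5a and Cdkl4 fell by 1.26, 1.07 and 1.06 and kept theirs in all 6. For Gsdme and Cdkl4 the mean over all probe sets was smaller, −0.67 and −0.64. The remaining genes of this set, Hspa1b, Hspa4l, Cyp4a31, Ehhadh, Ugt2b38 and Apoa4, belong to groups described below.

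**Figure D2:**
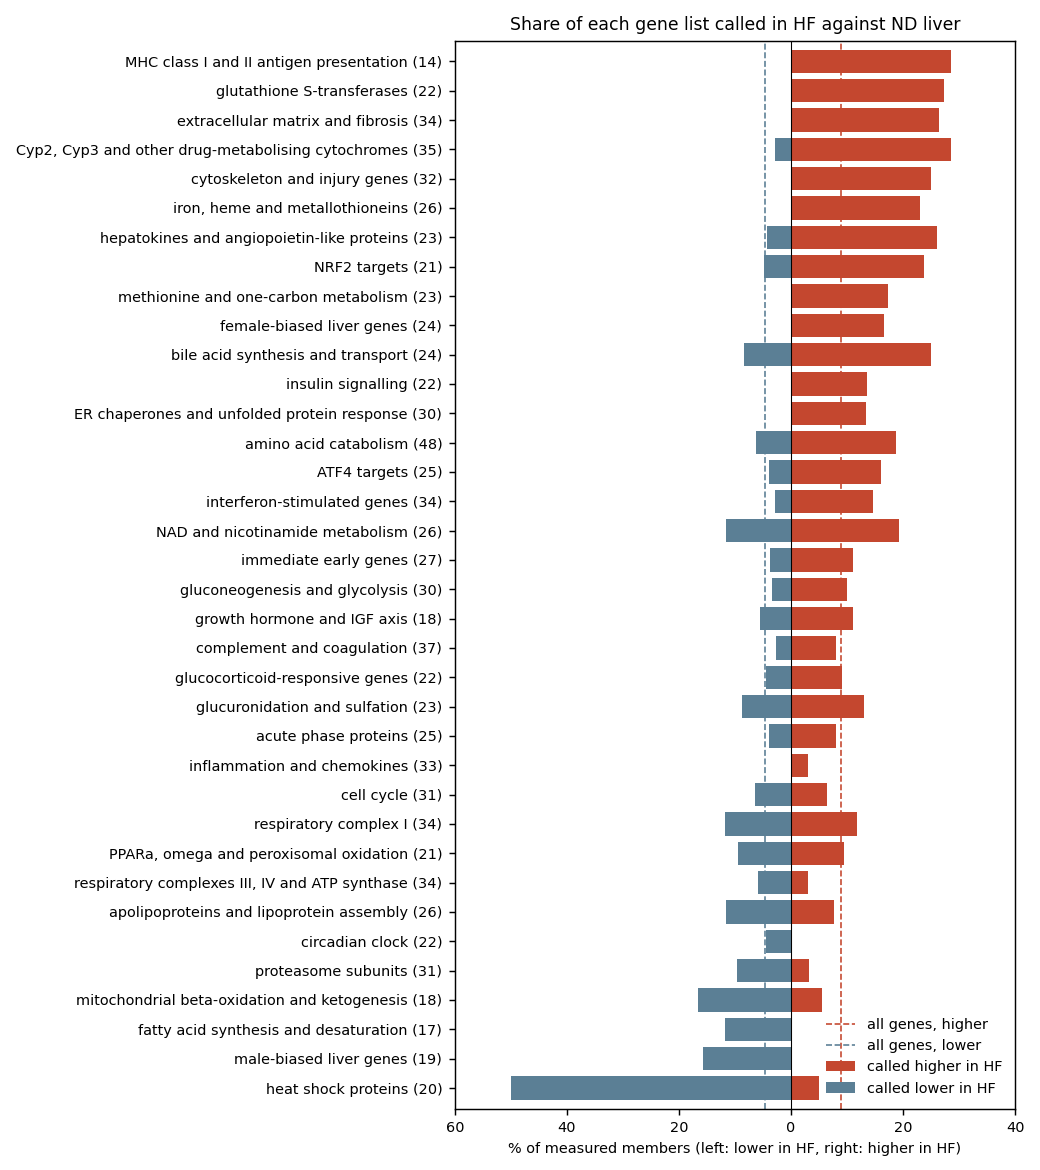
Percentage of the measured members of each of the 36 gene lists called higher (right) or lower (left) in the HF group, with the number of measured members in parentheses and dashed lines at the percentages for all genes (8.92% higher, 4.63% lower). The heat shock proteins stand out on the lower side with 10 of 20 members, and the drug-metabolising cytochromes, glutathione S-transferases, matrix and cytoskeleton genes lie above the dashed line on the higher side.

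The heat shock proteins outside the endoplasmic reticulum, most of them cytosolic with the mitochondrial pair Hspe1 and Hspd1, are chaperones and co-chaperones that bind unfolded proteins and that cells make more of under heat or other stress. They were lower as a group. Of 20 measured members, 10 fell and 1 rose, against 4.63% and 8.92% of all genes. The median log2 fold change was −0.42, against −0.0015 over all genes, and 19 of the 20 were below 0. In 14 members every HF array lay below every ND array, against 10.8% of all genes. The summed linear intensity of the list, to which bright probe sets contribute most, was 52280 to 61100 on the ND arrays and 33680 to 39450 on the HF arrays.

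Vertebrate heat shock genes are controlled by heat shock factors, which bind inverted GAA units. A pair of such units, GAANNTTC, which reads the same on both strands, was therefore searched in the RefSeq promoters of the GRCm38.p6 mouse assembly, from 250 bases before to 50 after the start of transcription. Promoters were given for 17 of the 20 members, and 11 of them held the pair in at least 1 promoter (64.7%). Of all 14452 tested genes with a promoter 7.60% did. The search used no values from the arrays. Among the 8 members with a promoter that fell, 6 held it, and among the 9 not called, 5 did. A longer form with a unit added on either side of an inverted pair (3 alternating units) occurred in 4 of the 17 and in 0.609% of the tested genes. These are matches of letters and no measurement of binding. Hspa4l and Dnajb4 fell and held neither form, while Chordc1 held both and was not called. The sequences below were picked from the members that fell and held the pair. Each is the strand of the named gene from 5′ to 3′, ending at the base before its start, with GAANNTTC and the 3-unit form in capitals. The stretch for Hspe1 is the 215 bases between its start and that of Hspd1, which is transcribed the other way, so both genes share it.
Hspe1, chr1:55087933-55088147, plus strand: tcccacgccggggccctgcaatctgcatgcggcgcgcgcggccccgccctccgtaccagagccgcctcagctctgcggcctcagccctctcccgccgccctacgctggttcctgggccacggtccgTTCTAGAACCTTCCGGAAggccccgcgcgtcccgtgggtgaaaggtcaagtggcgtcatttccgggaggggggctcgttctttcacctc
Hspb1, chr5:135887669-135887918, plus strand: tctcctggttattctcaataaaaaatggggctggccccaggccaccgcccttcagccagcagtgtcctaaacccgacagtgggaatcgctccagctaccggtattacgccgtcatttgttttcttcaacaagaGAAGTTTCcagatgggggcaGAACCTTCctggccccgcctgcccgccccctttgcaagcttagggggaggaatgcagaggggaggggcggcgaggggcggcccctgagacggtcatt
Dnaja1, chr4:40722218-40722467, plus strand: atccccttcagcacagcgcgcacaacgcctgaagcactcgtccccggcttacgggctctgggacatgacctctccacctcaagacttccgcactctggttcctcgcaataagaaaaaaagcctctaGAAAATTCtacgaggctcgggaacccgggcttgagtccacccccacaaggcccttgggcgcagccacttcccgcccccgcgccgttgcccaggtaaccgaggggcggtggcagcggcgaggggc
Hspa1b, chr17:34959239-34959488, minus strand: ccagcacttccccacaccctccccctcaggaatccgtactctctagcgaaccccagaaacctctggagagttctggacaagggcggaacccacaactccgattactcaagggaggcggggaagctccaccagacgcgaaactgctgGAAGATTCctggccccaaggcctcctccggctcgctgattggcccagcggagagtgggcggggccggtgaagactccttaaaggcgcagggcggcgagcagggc

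Hspe1 and Hspd1, whose products form the HSP10 and HSP60 folding chamber of mitochondria, share this stretch, and both fell. Hspe1 read 12.39, 12.32 and 12.31 on the ND arrays and 12, 11.76 and 11.85 on the HF arrays, a log2 fold change of −0.47 ± 0.08 (SE, n = 3 per group; limma adjusted p = 0.0033). Hspd1 read 12.53, 12.45 and 12.36 in ND and 12.16, 12.02 and 12.18 in HF livers, a change of −0.33 ± 0.08 (adjusted p = 0.013). Neither gene's groups overlapped.

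The HSP110 family members were among the clearest. Hspa4l read 8.46, 8.36 and 8.58 in ND livers and 7.54, 7.22 and 7.29 in HF livers. It fell by 1.11 ± 0.14 (SE; limma adjusted p = 0.00055), and it was among the 3 genes still called lower with the 3′ minus 5′ signal as a covariate. Hsph1, which releases ADP from HSP70, read 11.44, 11.26 and 11.36 in ND and 10.63, 10.44 and 10.47 in HF livers. It fell by 0.84 ± 0.17 (adjusted p = 0.0068). Hsp90aa1, the inducible cytosolic HSP90, read 13.13, 12.96 and 13.17 against 12.60, 12.10 and 12.25, a change of −0.77 ± 0.14 (adjusted p = 0.0039). Dnaja1, an HSP40 co-chaperone, changed by −0.59 ± 0.09 (adjusted p = 0.0025) and Hspa8, the constitutive HSP70, by −0.54 ± 0.10 (adjusted p = 0.0044). For Hspa8 the 4 probe sets disagreed, and their mean gave −0.13.

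Among strongly inducible members the ND mice differed more from each other. Hspa1b, an inducible HSP70, read 13.42, 12.68 and 12.51 in ND and 11.54, 11.56 and 10.93 in HF livers, a change of −1.52 ± 0.43 (SE; limma adjusted p = 0.029). ND replicate 1 was its highest array, and the call held in 2 of the 6 fits with an array left out. Hspa1a, its near-identical copy, from which probes may not separate it, read 8.92, 6.91 and 5.45 against 5.49, 5.28 and 5.10 and was not called (adjusted p = 0.10). Hspb1, the small heat shock protein HSP27, fell by 0.84 ± 0.24 (adjusted p = 0.033), with a call in 1 of those 6 fits. Dnajb1 and the co-chaperone Bag3 had log2 fold changes of −0.45 and −0.38 and were not called. Cryab, the small heat shock protein alpha-B crystallin, went the other way. It read 6.02, 5.88 and 5.65 in ND and 6.29, 6.33 and 6.53 in HF livers and rose by 0.53 ± 0.11 (adjusted p = 0.0093). Its 3 probe sets gave 0.53, 0.24 and −0.03, with a mean of 0.25.

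**Figure D3:**
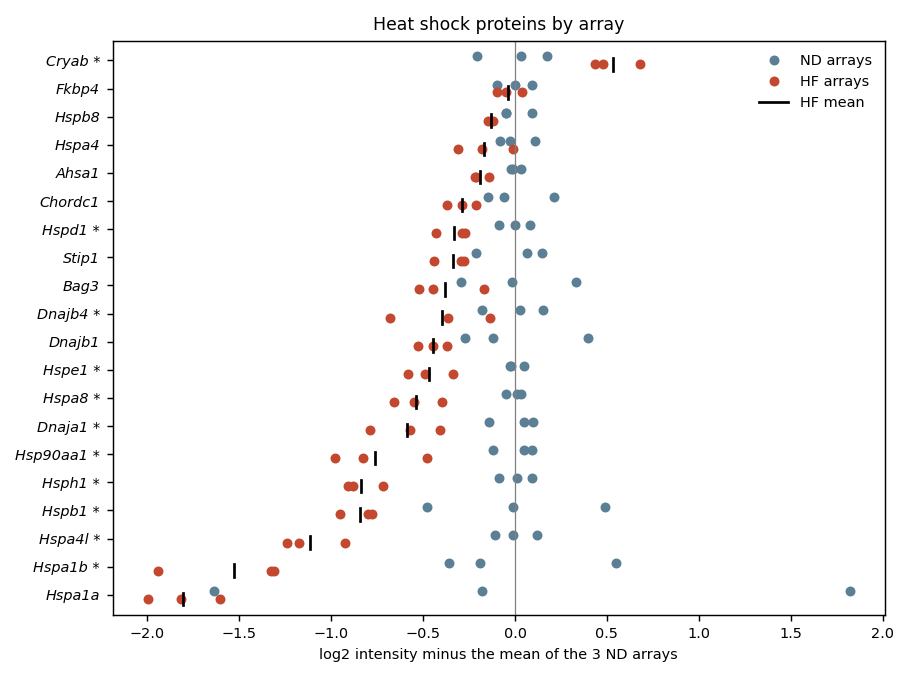
Log2 intensity of each of the 20 heat shock proteins (Hspe1 and Hspd1 mitochondrial) on the 3 ND and 3 HF arrays, less the gene's ND mean, with the HF mean as a black bar and an asterisk for called genes. In 14 genes every HF point lies left of every ND point, and only Cryab has its HF mean to the right of 0.

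The number of heat shock genes called lower was 6 without HF replicate 2, 7 without HF replicate 3 and 7 with the 6 arrays alone. With the 3′ minus 5′ signal as a covariate 1 was called lower and none higher, and the median log2 fold change was −0.53. The members Hspa4l, Hsph1, Hsp90aa1, Dnaja1, Hspa8 and Hspe1, were lower in all 6 fits with an array left out. In the coffee groups, which ate the same high-fat diet and are set against the same 3 ND arrays, Hsph1 differed from ND by −0.25 (HFCC), −0.61 (HFDC) and −0.18 (HFGC). Hsp90aa1 differed by −0.30, −0.32 and −0.17, and Hspa4l by −0.33, −0.58 and −0.24, where HF differed by −0.84, −0.77 and −1.11. Other members were as low or nearly as low in a coffee group as in HF. Hspb1 differed by −1.06, −0.65 and −0.82 (HF −0.84), Hspa8 by −0.39, −0.54 and −0.29 (HF −0.54) and Hspa1b by −0.72, −1.39 and −0.52 (HF −1.52). Differences between HF and the coffee groups were not tested here. The 3′ minus 5′ signal was 0.70 to 1.07 on the coffee arrays, below every HF array (1.08 to 1.40), and its part in these values was not tested. The chaperones of the endoplasmic reticulum were mostly not called. Of 30 measured, 27 were above 0 with a median log2 fold change of 0.26, or 0.093 with probe sets averaged. Called higher were 4, against 8.92% of all genes, and 2 with probe sets averaged. Among them were Sec61a1 (0.49, or 0.29 and not called as the mean of 6 probe sets), a subunit of the translocon, Calr (0.47), the lectin chaperone calreticulin, and Selenos (0.45). No member of that list was called without HF replicate 2 and 1 was without HF replicate 3.

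The cytochromes that oxidise drugs and steroids were the second group. Of 35 measured members, with the receptors that control them, 10 rose and 1 fell, against 8.92% and 4.63% of all genes. Without HF replicate 2, 7 rose. Cyp2b9 had the largest increase of any gene named by the rule. It read 4.82, 4.90 and 5.04 on the ND arrays and 8.84, 10.16 and 9.80 on the HF arrays, a log2 fold change of 4.68 ± 0.81 (SE, n = 3 per group; limma adjusted p = 0.0034). Its neighbour in the family, Cyp2b10, known as the main phenobarbital-inducible cytochrome of mouse liver, read 5.91, 6.14 and 6.42 in ND and 6.22, 6.46 and 6.47 in HF livers and was not called (0.22 ± 0.14, adjusted p = 0.32). The groups overlapped for Cyp2b10 and were far apart for Cyp2b9.

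The members of the Cyp2c subfamily, which oxidise fatty acids and drugs, and that were called all rose. Cyp2c38 read 8.12, 8.50 and 8.45 in ND and 9.34, 9.74 and 9.71 in HF livers and rose by 1.24 ± 0.21 (SE; limma adjusted p = 0.0031). Cyp2c54, Cyp2c37 and Cyp2c50 rose by 0.81, 0.61 and 0.52. These genes are closely similar in sequence, and signal shared between their probe sets is possible. Cyp1a2, which metabolises caffeine and other planar compounds, rose by 0.58 ± 0.09 (adjusted p = 0.0025). Cyp2d22 and Cyp2d10 rose by 0.43 and 0.21. Cyp2d22 averaged 0.25 over its 2 probe sets and was then not called (adjusted p = 0.052), and Cyp2d10 was called in 1 of the 6 fits with an array left out. The 2 nuclear receptors that switch these genes on, Nr1i3 (CAR) and Nr1i2 (PXR), rose by 0.57 ± 0.13 and 0.39 ± 0.09 (both adjusted p = 0.013). Cyp3a13 fell by 0.43 ± 0.12 (adjusted p = 0.036), with a call in 2 of those fits.

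The glutathione S-transferases, which conjugate electrophiles, were called in 1 direction. Of 22 measured, 6 rose and none fell, against 8.92% and 4.63% of all genes, with a median log2 fold change of 0.36. Mgst3, a microsomal member, read 8.25, 8.11 and 7.82 in ND and 8.74, 9.32 and 9.15 in HF livers, a change of 1.01 ± 0.16 (SE; limma adjusted p = 0.0026), or 0.52 as the mean of 2 probe sets. Gstt1 rose by 0.76 ± 0.13 (adjusted p = 0.0034) and Gstm4 by 0.56 ± 0.12 (adjusted p = 0.0084). Gsta2 had a larger change, 1.28 ± 0.38, but a call in only 2 of the 6 fits with an array left out (adjusted p = 0.040). Gstm2, Gsta4 and Gstm3 were between 0.44 and 0.59 and missed the threshold. Without HF replicate 2, 4 members were called higher, and without HF replicate 3, 3 were called higher and 1 lower.

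Among exporters and other targets of NRF2, the transcription factor of the oxidant response, 5 of 21 rose and 1 fell, against 8.92% and 4.63% of all genes. Abcc3, which exports conjugates from the hepatocyte to the blood, read 9.47, 9.88 and 8.95 in ND and 10.70, 11.02 and 10.78 in HF livers. It rose by 1.40 ± 0.17 (SE; limma adjusted p = 0.00055). Abcc2, its counterpart on the bile canaliculus, rose by 0.52 ± 0.12 (adjusted p = 0.010), the aldehyde oxidase Aox1 by 0.62 ± 0.14 (adjusted p = 0.010) and Taldo1 of the pentose phosphate pathway by 0.45 ± 0.09 (adjusted p = 0.0080). Nqo1, a much used marker of NRF2 activity, read 6.40, 5.98 and 6.37 against 6.51, 6.62 and 6.88 and was not called (0.42, adjusted p = 0.087). Of 23 genes of glucuronidation and sulfation, 3 rose and 2 fell, against 8.92% and 4.63% of all genes. Among those that rose were the sulfotransferase Sult1b1 (0.88 ± 0.18, adjusted p = 0.0078) and Ugdh, which makes UDP-glucuronic acid (0.57 ± 0.14, adjusted p = 0.018). The 2 that fell were Ugt2b38 and Ugt2b1, and neither was called without HF replicate 2 or without HF replicate 3.

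**Figure D4:**
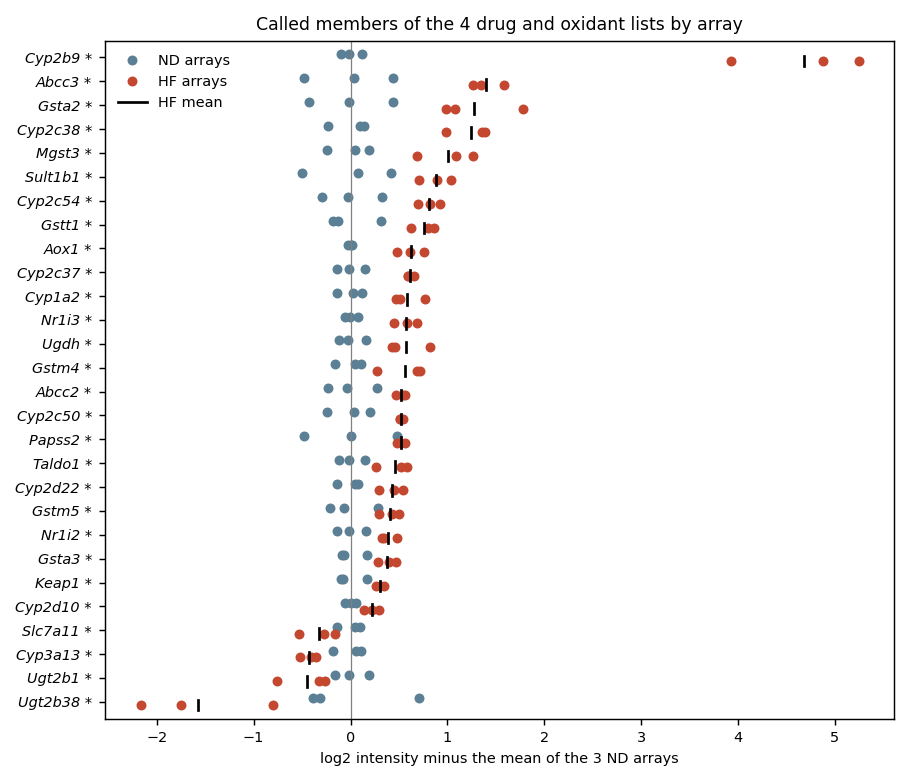
Log2 intensity of every called member of the cytochrome, glutathione S-transferase, glucuronidation and sulfation, and NRF2 target lists on the 3 ND and 3 HF arrays, less the gene's ND mean, with the HF mean as a black bar. Cyp2b9 stands alone at 4.68 and Abcc3 follows at 1.40, while Ugt2b38 lies furthest to the left at −1.57. Papss2 is drawn by its brightest probe set (0.52), whereas the mean of its probe sets gave −0.02.

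Some of these genes differ between the sexes in mouse liver. Of 24 measured genes known to be higher in females, 4 rose, and of 19 known to be higher in males, 3 fell, against 8.92% higher and 4.63% lower over all genes. The 4 were Cyp2b9, Abcd2, a peroxisomal transporter of very long chain fatty acids (1.42 ± 0.27, SE; limma adjusted p = 0.0056), the organic anion transporter Slc22a27 (1.13 ± 0.29, adjusted p = 0.019) and Atp6v0d2 (0.75 ± 0.22, adjusted p = 0.038). For Abcd2 the mean over 4 probe sets was 0.78. Slc22a27 was called in 4 and Atp6v0d2 in 0 of the 6 fits with an array left out, and without HF replicate 2 this list had 2 higher and 1 lower. The 3 that fell were Ugt2b38, a glucuronosyltransferase (−1.57 ± 0.40, adjusted p = 0.019), Slco1a1, an organic anion uptake transporter (−0.73 ± 0.22, adjusted p = 0.042), and Cyp7b1, an oxysterol hydroxylase (−0.64 ± 0.17, adjusted p = 0.026, or −0.40 and not called as the mean of 3 probe sets). HF replicate 2 was the lowest array for all 3. The list of genes higher in males had no call without that array and 1 without HF replicate 3. Cyp4a12a read 11.34, 11.72 and 11.43 in ND and 10.82, 9.54 and 10.67 in HF livers and was not called (adjusted p = 0.056). The medians of the 2 lists were 0.11 and 0.0034. All mice were males.

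The genes of fatty acid oxidation split. Ppara, the receptor that activates them, read 9.91, 10.33 and 10.03 in ND and 10.78, 11.27 and 10.98 in HF livers and rose by 0.92 ± 0.13 (SE; limma adjusted p = 0.0016). Cyp4a31 and Ehhadh, which it is known to activate, fell. Cyp4a31, an omega hydroxylase, read 11.40, 11.32 and 11.37 against 10.31, 10.13 and 9.74 and fell by 1.31 ± 0.22 (adjusted p = 0.0031). Ehhadh, the peroxisomal bifunctional enzyme, read 13.90, 13.54 and 13.37 against 12.87, 12.26 and 12.25 and fell by 1.14 ± 0.20 (adjusted p = 0.0041). Over the list of 21 genes, 2 rose and 2 fell, against 8.92% and 4.63% of all genes, and the median was −0.0034. Of 18 genes of mitochondrial beta-oxidation and ketogenesis 1 rose and 3 fell, against 8.92% and 4.63% of all genes. Etfdh and Acadl fell by 0.47 and 0.30 and Acads rose by 0.39, while Cpt1a, the entry step, was at −0.34 and not called (adjusted p = 0.12). None of the 18 kept a call in all 6 fits with an array left out. Of 17 genes of fatty acid synthesis and desaturation 2 fell and none rose, against 4.63% and 8.92% of all genes, and the median was −0.25. The 2 were the elongases Elovl6 (−0.98 ± 0.22, adjusted p = 0.011) and Elovl2 (−0.76 ± 0.14, adjusted p = 0.0048). Elovl6 lost its call without HF replicate 2 or HF replicate 3. Srebf1, the factor that drives the pathway, read 10.66, 10.41 and 9.59 against 9.46, 9.35 and 10.01, with overlapping groups.

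Genes of the cytoskeleton and of cell injury were higher in part. Of 32 measured, 8 rose and none fell, against 8.92% of all genes, with a median log2 fold change of 0.13. The summed intensity of the list was 31390 to 31730 on the ND arrays and 36610 to 36880 on the HF arrays. Lgals1, the lectin galectin-1, read 7.67, 8.37 and 7.05 in ND and 9.99, 10.95 and 10.87 in HF livers, a change of 2.90 ± 0.31 (SE, n = 3 per group; limma adjusted p = 0.00025). Tpm2, a tropomyosin of actin filaments, read 7.52, 8.20 and 7.18 against 9.47, 10.06 and 10.02, a change of 2.22 ± 0.32 (adjusted p = 0.0016). For both genes ND replicate 2 was the highest ND array, and it stayed below every HF array. Tmsb10, which binds free actin, rose by 1.03 ± 0.14 (adjusted p = 0.0010), with 0.60 as the mean of its 5 probe sets. S100a6 and Anxa2, both calcium-regulated proteins, rose by 0.72 and 0.63, the latter by 0.41 as the mean of 3 probe sets.

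S100a8 and S100a9 form calprotectin, known best from neutrophils. S100a8 read 4.82, 4.37 and 4.51 in ND and 5.54, 5.88 and 6.80 in HF livers and rose by 1.51 ± 0.29 (SE; limma adjusted p = 0.0057). S100a9 rose by 0.74 ± 0.20 (adjusted p = 0.026), with a call in 3 of the 6 fits with an array left out. Of the 7 neutrophil markers measured these 2 were called higher, against 8.92% of all genes, and all 7 lay above 0. The summed intensity of all 7 was 388 to 440 in ND and 456 to 623 in HF livers, and its part in the S100 result was not tested.

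The extracellular matrix showed a partial change. Of 34 measured matrix and fibrosis genes 9 rose and none fell, against 8.92% and 4.63% of all genes, while the median of the list was 0.0052 and 17 members lay below 0. With probe sets averaged 3 rose and 2 fell. Col3a1, a fibrillar collagen, read 8.21, 8.17 and 7.84 in ND and 8.91, 8.76 and 8.64 in HF livers and rose by 0.70 ± 0.16 (SE; limma adjusted p = 0.011). Mmp2, a matrix metalloproteinase, rose by 0.42 ± 0.07 (adjusted p = 0.0033), Col6a1 by 0.46 ± 0.11 (adjusted p = 0.015) and Tgfb1, the main fibrogenic cytokine, by 0.33 ± 0.08 (adjusted p = 0.017). Averaging the probe sets of a gene gave 0.36 for Col3a1, 0.25 for Mmp2 and 0.10 for Tgfb1. Col1a1, the chief collagen of scars, read 5.41, 5.45 and 5.58 against 5.22, 5.63 and 5.48 and was not called, and Ccn2 was at −0.54 and not called. The count of matrix genes was 5 without HF replicate 2 and 4 without HF replicate 3.

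Markers of stellate cells and fibroblasts moved beside these genes. Of 9 measured, 4 rose (Pdgfrb, Col3a1, Reln and Ecm1), against 8.92% of all genes. The summed intensity of all 9 was 4027 to 4583 in ND and 4668 to 5835 in HF livers. Pdgfrb, the receptor through which stellate cells respond to platelet-derived growth factor, read 6.70, 6.37 and 6.49 in ND and 7.44, 7.20 and 7.16 in HF livers, a change of 0.75 ± 0.13 (SE; limma adjusted p = 0.0032), or 0.41 as the mean of 2 probe sets. Their other defining markers, Lrat, Dcn and Des, were at 0.27, 0.12 and 0.01 and not called. Reln rose by 0.52, or 0.26 as the mean of 2 probe sets. The part of stellate cells in the matrix result was not tested.

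**Figure D5:**
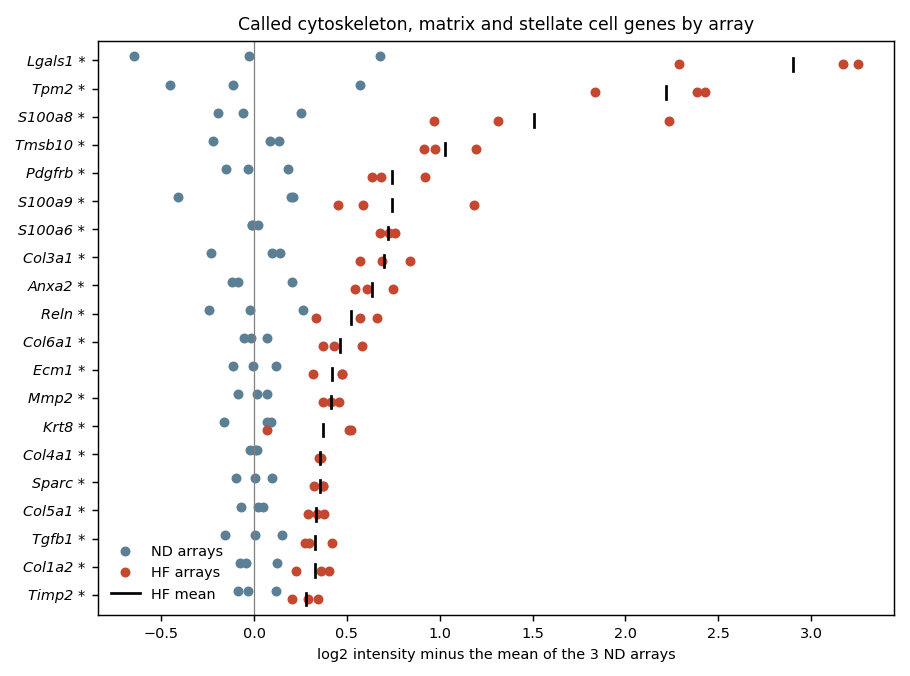
Log2 intensity of every called gene of the cytoskeleton and injury, matrix and stellate cell lists on the 3 ND and 3 HF arrays, less the gene's ND mean, with the HF mean as a black bar. Lgals1 and Tpm2 lie more than 2 units to the right, and most matrix genes lie within 0.5 of the ND mean.

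Markers of macrophages and lymphocytes and genes of inflammation gave few calls, where 13.5% of all genes were called in either direction. None of the 10 markers of Kupffer cells and macrophages was called, with a median log2 fold change of 0.19. Clec4f, which defines mouse Kupffer cells, read 9.84, 9.71 and 9.19 in ND and 9.88, 10.07 and 10.03 in HF livers (0.41 ± 0.17, SE; limma adjusted p = 0.11). None of the T and NK cell, B cell and cholangiocyte markers was called either, and none of the 8 hepatocyte markers. Of 33 genes of inflammation and chemokines 1 was called, Il18 (0.45 ± 0.13, adjusted p = 0.037), and the median was −0.03. Of 34 interferon-stimulated genes 5 rose and 1 fell, against 8.92% and 4.63% of all genes. The guanylate-binding protein Gbp6 led the rises (1.18 ± 0.28, adjusted p = 0.014), and Stat2 fell by 0.43. Of 14 genes of antigen presentation 13 lay above 0, with a median of 0.28, and 4 rose and none fell, against 8.92% and 4.63% of all genes. They were led by H2-DMa (0.65 ± 0.17, adjusted p = 0.025, or 0.26 and not called as the mean of 2 probe sets) and the immunoproteasome subunit Psmb8 (0.51 ± 0.12, adjusted p = 0.016). H2-Ab1 and Cd74, of the same class II pathway, were at 0.56 and 0.47 with overlapping groups and not called. Neither list had a call without HF replicate 2. Of the endothelial markers, Stab2, a scavenger receptor of the sinusoids, rose by 0.49 ± 0.08 (adjusted p = 0.0030), as 1 of 10 measured. Cela1, an elastase on the list of pancreatic acinar markers, rose by 0.90 ± 0.16 (adjusted p = 0.0035), as 1 of the 5 of that list measured. Of 5 adipocyte markers 3 lay below 0 and 1 was called, Car3, a carbonic anhydrase that mouse liver also expresses (0.57 ± 0.12, adjusted p = 0.0094). Its probe sets gave 0.57, 1.16, 0.31 and −0.07, and with probe sets averaged no marker of the list was called. The summed intensity of the list was 9307 to 15100 in ND and 17750 to 17950 in HF livers. Car3, with means of 13.54 and 14.11, contributed most of it, while Adipoq was at −0.02. Of 4 erythroid markers 1 was called, and none without HF replicate 2.

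Secreted liver proteins changed singly. Of 23 hepatokines and angiopoietin-like proteins 6 rose and 1 fell, against 8.92% and 4.63% of all genes, and the median was 0.0015. Enho, which encodes adropin, read 6.98, 6.70 and 6.92 in ND and 8.27, 8.40 and 8.37 in HF livers, a change of 1.48 ± 0.19 (SE; limma adjusted p = 0.00077), or 0.76 as the mean of 4 probe sets. The 3 HF arrays lay close together and above every ND array. Enho was also above ND in the coffee groups, by 1.69 (HFCC), 1.84 (HFDC) and 1.92 (HFGC), against the same 3 ND arrays. Angptl4, an inhibitor of lipoprotein lipase, read 9.25, 8.56 and 7.81 against 9.93, 10.41 and 9.75 and rose by 1.49 ± 0.38 (adjusted p = 0.021), or 0.85 as the mean of 2 probe sets, with a call in 4 of the 6 fits with an array left out. Lect2 and Inhbe each rose by 0.82 (adjusted p = 0.0027 and 0.0053), and Fetub rose by 0.53 ± 0.09 (adjusted p = 0.0030). Igfbp2, which binds insulin-like growth factors, fell by 0.53 ± 0.16 (adjusted p = 0.036), with a call in 1 of the 6 fits with an array left out. Ghr, the growth hormone receptor, rose by 0.40 ± 0.09 (adjusted p = 0.012), or 0.14 as the mean of 3 probe sets, and Fgf21 was at 0.69 with overlapping groups and not called.

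Regulators of insulin action, hormones and the clock gave few calls. Of 22 genes of insulin signalling 3 rose and none fell, a share near the 13.5% called over all genes, with 18 above 0. Trib1, a pseudokinase that binds AKT and COP1 partners, rose by 0.67 ± 0.14 (SE; limma adjusted p = 0.0089), and Ptpn1, the phosphatase PTP1B that dephosphorylates the insulin receptor, by 0.38 ± 0.08 (adjusted p = 0.010), or 0.23 as the mean of 2 probe sets. Slc37a4, which carries glucose 6-phosphate into the endoplasmic reticulum, fell by 0.56 ± 0.12 (adjusted p = 0.0092). Pck1 and G6pc, which encode the controlled enzymes of gluconeogenesis, were at 0.76 and 0.56 and not called (adjusted p = 0.22 and 0.23). Of 22 clock genes Per2 alone was called, against 13.5% of all genes. It read 8.97, 9.18 and 8.70 in ND and 8.44, 7.71 and 8.03 in HF livers, a change of −0.89 ± 0.16 (adjusted p = 0.0047), or −0.28 as the mean of 3 probe sets. Dbp, a strongly rhythmic output gene, read 9.53, 11.24 and 10.03 against 10.58, 10.84 and 10.83. Cebpb, a factor of gluconeogenic and inflammatory genes, rose by 0.61 ± 0.10 (adjusted p = 0.0026). Of 22 glucocorticoid-responsive genes 2 rose and 1 fell, against 8.92% and 4.63% of all genes, with a median of −0.16 and 13 below 0. Klf9 of that list rose by 0.85 ± 0.19 (adjusted p = 0.011), and its probe sets ranged from −0.09 to 1.27. No member of the list was called without HF replicate 2.

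Catabolism of amino acids went both ways. Of 48 measured genes 9 rose and 3 fell, against 8.92% and 4.63% of all genes, and 4 rose and 1 fell both without HF replicate 2 and without HF replicate 3. Aass, which begins the breakdown of lysine, read 12.21, 12.27 and 12.40 in ND and 11.68, 11.17 and 11.38 in HF livers and fell by 0.88 ± 0.16 (SE; limma adjusted p = 0.0041). Agxt2 of glyoxylate and dimethylarginine handling, Sardh of sarcosine oxidation and Bckdha of the branched-chain ketoacid dehydrogenase rose by 0.77, 0.68 and 0.56. Haao and Afmid, on the kynurenine route from tryptophan to NAD, both rose by 0.44, Afmid by 0.29 as the mean of 4 probe sets. Among sirtuins, which consume NAD, Sirt3 of mitochondria rose by 0.43 ± 0.09 (adjusted p = 0.0089) and Sirt1 of the nucleus fell by 0.47 ± 0.12 (adjusted p = 0.024).

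In bile acid synthesis and transport 6 of 24 genes rose and 2 fell, against 8.92% and 4.63% of all genes. Without HF replicate 2, 5 rose and none fell, and without HF replicate 3, 4 rose and none fell. Hsd3b7 and Akr1d1, which modify the sterol ring, rose by 0.43 and 0.62, and Slc27a5, which activates bile acids for conjugation, by 0.32. Cyp7a1, the rate-limiting enzyme of the classical route, read 11.97, 12.04 and 11.65 in ND and 11.73, 10.57 and 11.59 in HF livers and was not called (adjusted p = 0.35). Among apolipoproteins and lipoprotein assembly 2 of 26 rose and 3 fell, against 8.92% and 4.63% of all genes. The 3 were Apoa4, a lipoprotein component also made by the intestine (−1.06 ± 0.31, SE; limma adjusted p = 0.035), Mttp, which loads lipid onto nascent particles (−0.58 ± 0.13, adjusted p = 0.010), and Abca1, the exporter of cholesterol to nascent HDL (−0.50 ± 0.11, adjusted p = 0.0090). Apoa4 was called in 0 of the 6 fits with an array left out.

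The respiratory chain showed no common direction. Of 34 genes of complex I 4 rose and 4 fell, against 8.92% and 4.63% of all genes, with a median of 0.015. Of 34 genes of complexes III and IV and ATP synthase 1 rose and 2 fell, against 8.92% and 4.63% of all genes. Cycs, the electron carrier cytochrome c, read 13.12, 12.97 and 13.08 in ND and 12.68, 12.51 and 12.65 in HF livers and fell by 0.44 ± 0.07 (SE; limma adjusted p = 0.0021). Uqcrfs1, the Rieske subunit of complex III, fell by 0.49 ± 0.11 (adjusted p = 0.0096), and Ndufs8 of complex I rose by 0.32 ± 0.07 (adjusted p = 0.0089). Of 31 proteasome subunits 1 rose and 3 fell, against 8.92% and 4.63% of all genes, and none was called without HF replicate 2 or without HF replicate 3.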

How the data were processed

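Liver RNA was labelled with biotin and hybridised to Affymetrix GeneChip mouse genome arrays, 1 per mouse. The intensity values deposited by the authors are linear and came from RMA (robust multi-array average), a background correction with normalisation between arrays and a summary per probe set, whose software version was not given in the sources used here. Array medians were 48.5 to 50.0. Log2 was taken without further normalisation. Of 45101 probe sets 34945 carried exactly 1 symbol, and each of 18193 genes was represented by its brightest probe set, with one marked _x_at, less specific by design, used only in the absence of others. limma 3.58.1 in R 4.3.3 fitted all 15 arrays with 5 group means (10 residual degrees of freedom), and HF minus ND was tested with Benjamini-Hochberg adjustment. The script was tested on simulated data. Alternatives used averaged probe sets, a level filter, cyclic loess, an offset, the 6 arrays alone, a replicate block, trend and robust settings, the 3′ minus 5′ covariate, and each array left out. Named genes were the 15 highest and 15 lowest called genes without overlap, plus called and uncalled members of 36 gene lists and 11 marker lists. The lists were chosen with earlier results of these data known. The number of arrays limits the precision. Promoters were from RefSeq.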

Additional observations from a re-analysis of the deposited data

How the results depend on the processing

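Cyclic loess between arrays left the numbers called within 1.5 times but shifted their balance, from 65.8% of calls higher to 51.5% (1177 higher and 1108 lower). The median log2 fold change of all genes was −0.0015 in the main fit. With the 6 arrays alone 377 genes were higher and 104 lower, with the 3′ minus 5′ signal as a covariate 11 and 3, with a 1.5-fold minimum 252 and 122, and over all named probe sets 1553 were lower. Leaving out 1 array gave 693 to 1943 higher and 296 to 1189 lower. The lowest counts came without HF replicate 2, and fewer arrays were in each such fit. The median SE of the called genes was 0.092, and 0.131 with the covariate. In the fit with the replicate number as a block 1545 genes were higher and 792 lower. Deviations of ND and HF arrays with the same number had correlations of 0.157, −0.056 and −0.0054. Those with different numbers ranged from −0.163 to 0.175. With so few arrays these values cannot decide whether the numbers pair the mice. Of 123 named genes that were called, 77 kept their calls in all 6 fits with an array left out, and 41 lost them without HF replicate 2. For Papss2 the mean of the probe sets gave −0.017, where the brightest had risen. Causes were not tested.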

Other observations

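Hamp, which encodes hepcidin, the hormone that limits iron release, read 9.90, 10.90 and 5.73 on the ND arrays and 6.04, 4.67 and 4.99 on the HF arrays. Its log2 fold change of −3.61 ± 1.49 (SE, n = 3 per group) was not called (limma adjusted p = 0.12), and ND replicate 3 lay among the HF arrays. The same ND array had the highest ND values of the acute phase genes Saa1 (8.79, 9.35 and 11.18 against 10.53, 10.83 and 10.47) and Lcn2 (5.87, 6.27 and 7.73 against 7.57, 7.84 and 8.03), neither of which was called. Of the 10092 probe sets with no symbol or several, 311 were called higher and 391 lower in the HF group. That is 6.96%, a smaller share than the 11.3% of probe sets with 1 symbol.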
